A study of Bos taurus with 12 samples.

Results

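The features described here are bovine miRNAs whose miRBase identifiers start with MI0009 or MI0010, the second block in which cattle miRNAs were registered. The deposited table holds 231 such features among 2712 in all. Of these, 32 had no value other than 0 and 12 were set aside by identifier, among them bta-miR-208b. The remaining 187 are the members, and each had at least 1 value other than 0. The features set aside are all among those that the study lists as changed, so measured results shaped the set, and its counts of changed members are lower for it. The 2 members named below are from the same lists. The sources used here pair only 2 of the 187 with a miRNA name, bta-miR-505 (MI0009856) and bta-miR-362-5p (MI0009811), so the others are given by identifier, and at most 2 per direction are singled out in a comparison. Their mature sequences were not analysed here.

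Small RNA was sequenced from needle biopsies of longissimus muscle of 4 yearling angus-cross steers, all by the same Angus sire. Biopsies were taken from every steer before a high concentrate diet (d 0) and after 92 d and 124 d on it (d 92 and d 124), so the 12 libraries fall into 3 groups of 4. The d 0 libraries are therefore the same animals before the diet, and no group stayed off the diet. The study picked these steers because their intramuscular fat content lay closest to the treatment mean. The codes of the middle samples read d 90, while their titles read d 92, and d 92 is used here. The biopsy site moved with the time, from left at d 0 to right at d 92 and to the next rib, on the left again, at d 124. Hence the time on the diet, the age of the steer and the site cannot be told apart. In a whole biopsy, fewer cells of a type and less RNA per cell cannot be told apart either. Depth per library cannot be read from the files, since the table holds quantile-normalized log2 values and not counts.

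MicroRNAs are short RNAs cut from hairpin precursors and loaded onto Argonaute proteins, where they pair with messenger RNAs and lower their translation and stability. Many lie in clusters and are transcribed together, and near-identical copies can sit at several places in the genome. In skeletal muscle and in fat cells, miRNAs are known to act on differentiation, fibre type and lipid metabolism.

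The members covered almost the whole range of abundance of the table. Of the 180 members whose level could be recovered, 135 were above the floor in all 12 libraries. The floor is the value of 0 on the log2 scale to which low signals were set. The 7 members without a recovered level were counted against their own lowest value, so their distance from the floor is not known. The test took the 171 members that exceeded the floor in 4 or more libraries, and left out 16 that exceeded it in 1 to 3 libraries with no level over 2.44. The median level of the tested members was 5.66 on the log2 scale, with a middle range of 3.03 to 8.51 over 164 members whose level could be recovered from the deposited deviations. Of these 164, 50 had a mean level of 8 or more, 73 lay between 3 and 8, and 41 lay under 3. Among the 180 members with a recovered level, the most abundant was MI0009772, with a mean of 15.59 and library values between 14.97 and 16.19. MI0009819 came next, with a mean of 15.49. The 7 members without a recovered level could not be ranked and may be more abundant.

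By comparison, the tested miRNAs registered earlier (MI0004 and MI0005) had a median level of 11.70, with a middle range of 9.30 to 13.41. The 78 tested miRNAs registered later (MI0011 to MI0015) had a median of 2.12, with a middle range of 0.70 to 6.37. The members lay between these blocks, with wide overlap on either side. Their spread between libraries lay between them too, with a median SD over the 12 libraries of 0.54 on the log2 scale against 0.40 for the earlier block and 0.62 for the later block.

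**Figure D1:**
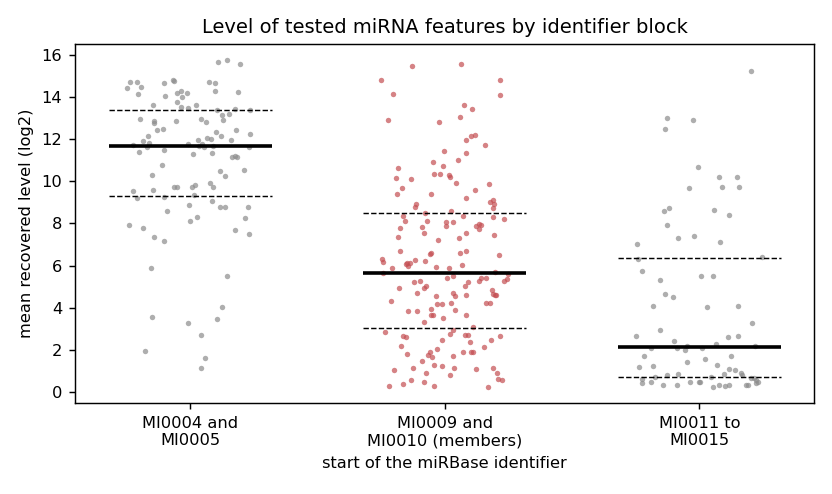
Mean level over 12 libraries (log2, vertical axis) of each tested miRNA, by the start of its identifier (horizontal axis, points spread sideways only for display). Solid lines are medians (11.70, 5.66 and 2.12 from left to right) and dashed lines are quartiles. The members fill the range from the floor to above 15.

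For 7 members the level itself could not be recovered, and 6 of these behaved as a set. Their deviations from their own medians summed to 0 in every one of the 12 libraries, as the deviations of features that trade places in a fixed list of values would. All 6 were off their medians in d 0 of steer 4 and in d 124 of steer 1. In d 92 of steer 2, 4 were off their medians, and in d 0 of steer 1, d 92 of steer 1 and d 92 of steer 3 the number was 2 each. In the other 6 libraries none was. The deviations ran from -0.98 to 1.90 on the log2 scale. Differences between times are therefore not described for these 6 members, and none of them passed the limits used below.

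The first member with a name, bta-miR-505, lies on the X chromosome in the reference annotation (ARS-UCD2.0). Its level in steers 1 to 4 was 8.28, 7.30, 7.90 and 8.69 at d 0. At d 92 it was 7.79, 7.86, 8.58 and 8.23, and at d 124 it was 7.62, 7.84, 8.58 and 8.75. The 3 times overlapped throughout, and the steers held different courses, with steer 1 lower and steer 3 higher after d 0. The difference at d 92 from d 0 was 0.07 ± 0.35 on the log2 scale (SE, n = 4 per time, limma adjusted p = 0.983, two-sided exact permutation p = 0.914). At d 124 it was 0.16 ± 0.35 from d 0 (limma adjusted p = 0.95, exact permutation p = 0.686) and 0.08 from d 92. The study lists bta-miR-505 as higher at d 124 than at d 0, and here that difference did not pass the test. The sign of each of the 3 differences changed on leaving out single libraries, so no direction is given here. Time took 2.07% of the variance of bta-miR-505 and steer took 62.3%.

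The second, bta-miR-362-5p, comes from a group of X-linked miRNA genes. In the same annotation MIR362 lies between MIR502B and MIR500, with MIR188 and MIR660 close by. Its level was 10.65, 10.92, 10.77 and 11.62 at d 0, and 10.92, 10.96, 9.84 and 11.43 at d 92. At d 124 it was 10.20, 10.32, 10.38 and 10.65, which was below the d 0 level in each of the 4 steers. Only the d 124 level of steer 4 and the d 0 level of steer 1 met, at 10.65. The study lists bta-miR-362-5p as lower at d 124 than at d 0. Here the difference of -0.60 ± 0.32 (SE, n = 4 per time) did not pass the test (limma adjusted p = 0.676, exact permutation p = 0.0571). Its unadjusted limma p was 0.0819 with time alone, 0.0398 with the steer as a block and 0.0428 without the d 92 library of steer 3. The difference at d 92 from d 0 was -0.20 ± 0.32, and it was 0.11 without that same d 92 library and 0.01 without the d 0 library of steer 4. Time took 27% of the variance of bta-miR-362-5p and steer took 46.4%.

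The comparison of d 92 with d 0 covers the first months on the diet, over which the age and the biopsy site changed too. No member passed an adjusted p of 0.05 in limma, where the smallest was 0.465. By the study's limits, an unadjusted p under 0.05 and a change of at least 1.3-fold, 9 of 171 members passed (5.26%), 3 higher and 6 lower. Among all 368 miRNAs tested 5.16% passed, with 1.36% higher and 3.8% lower. These 368 include the 171 members. They also still hold the 12 features set aside, of which 5 passed, and without those 12 the share was 3.93%. With each library's median taken out, the split became 3 higher and 3 lower. The count of lower members was 3 without the d 0 library of steer 4 and 11 without that of steer 2 or of steer 3. The count of higher members was 5 without the d 0 library of steer 4.

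Lower members at d 92 were of middle to high level. The 6 had mean levels from 3.31 to 9.70, were lower in all 4 steers, and differed by 1.37-fold to 2.25-fold. They were picked on the same values. Of all 171 members 22 were lower in all 4 steers, and of all 368 tested miRNAs 33 were. The largest difference was that of MI0009827, with levels of 4.75, 4.33, 4.92 and 4.24 at d 0 against 3.55, 3.48, 3.41 and 3.12 at d 92. These groups did not overlap. The difference was -1.17 ± 0.33 on the log2 scale (SE, n = 4 per time, limma adjusted p = 0.465, exact permutation p = 0.0286, the smallest that 70 regroupings allow). Next came MI0009776, with 4.14, 3.30, 4.05 and 4.24 at d 0 against 2.15, 3.14, 2.90 and 3.46 at d 92. Its groups met, because the d 92 level of steer 4 was above the d 0 level of steer 2. The difference was -1.02 ± 0.32 (limma adjusted p = 0.465, exact permutation p = 0.0571). Exact permutation p-values are printed unadjusted throughout. After Benjamini-Hochberg adjustment over 22 comparisons of the members named or singled out, the smallest exact permutation p was 0.114. Most of these members were picked by the size of their differences in the same values.

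Higher members at d 92 were all near the floor. The 3 had mean levels from 0.91 to 1.25, and 2 of them carry consecutive identifiers. The largest difference was that of MI0009750, at 0, 0.04, 1.34 and 0 at d 0 against 2.15, 2.63, 1.3 and 3.83 at d 92. It was higher in 3 of 4 steers, with steer 3 as the exception. On the floored log2 scale the difference was 2.13 ± 0.57 (SE, n = 4 per time, limma adjusted p = 0.465, exact permutation p = 0.0571). Since 2 of the d 0 libraries were at the floor, its size depends on where the floor was set, and it came to 0.52 after 10 was added to each linear value. Next was MI0009729, at 0.95, 1.06, 0 and 0 at d 0 against 2.85, 1.90, 2.37 and 1.62 at d 92, with no overlap and a higher value in each steer. Its difference was 1.68 ± 0.53 (limma adjusted p = 0.465, exact permutation p = 0.0286), or 0.36 with 10 added.

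Across the 171 members, 119 had a negative difference at d 92 (69.6%), with a median of -0.18 on the log2 scale. Of all 368 tested miRNAs, 226 did (61.4%), with a median of -0.09. This lean rested on 1 library: without the d 0 library of steer 4, 84 of 171 members were below 0 (49.1%) and the median was 0.00. With each library's median taken out it was 54.4%. The 2 times did not overlap in 1 higher and 4 lower members, where 0.815% and 2.45% of all tested miRNAs did not (3.26% in either direction).

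The comparison of d 124 with d 0 spans the whole feeding period, and it shares the d 0 libraries with the comparison above. Again 0 members passed an adjusted p of 0.05 in limma, where the smallest was 0.276. By the study's limits 20 of 171 members passed (11.7%), and all 20 were lower. Among all tested miRNAs 8.97% passed, with 1.36% higher and 7.61% lower. Of the 12 features set aside 8 passed, and without them 25 of 356 passed (7.02%). The 20 members are among these 25. With each library's median taken out, 2 members were higher and 15 lower, and those 15 were among the 20. Without the d 0 library of steer 4, 3 were higher and 11 lower. The count of lower members was also 11 without the d 124 library of steer 3 and 12 without that of steer 1.

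The 20 lower members spread over levels from 2.74 to 9.70, with a median of 5.57, and differed by 1.47-fold to 2.19-fold. Of the 20, which were picked on the same values, 17 were lower in all 4 steers. This held for 25 of all 171 members and for 38 of all 368 tested miRNAs. The largest difference was that of MI0009802, with levels of 5.62, 4.33, 4.60 and 4.93 at d 0 against 2.89, 3.20, 4.17 and 4.69 at d 124. The groups met, since the d 124 level of steer 4 was above the d 0 levels of steers 2 and 3. The difference was -1.13 ± 0.38 (SE, n = 4 per time, limma adjusted p = 0.468, exact permutation p = 0.0857), and it no longer passed the study's limits without the d 0 library of steer 1, at -0.88.

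The second largest, MI0009821, was also the most abundant of the 20. It stood at 10.29, 10.58, 9.82 and 10.40 at d 0, at 9.47, 9.77, 9.56 and 9.72 at d 92, and at 8.40, 8.98, 9.64 and 9.75 at d 124. Every later library was below every d 0 library. At d 124 the difference was -1.08 ± 0.29 (SE, n = 4 per time, limma adjusted p = 0.283, exact permutation p = 0.0286), a level 2.11-fold lower. At d 92 it was -0.64 (limma adjusted p = 0.857, exact permutation p = 0.0286). That d 92 difference lay close to the limit of p, and missed it without any of the d 0 libraries of steers 1, 2 and 4, any of the d 92 libraries or the d 124 library of steer 2, with values from -0.69 to -0.54. It also missed it with medians taken out, at -0.51.

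The members singled out at d 92 stood as follows at d 124. MI0009827 was at 2.82, 3.58, 4.05 and 3.63, below every d 0 library, with a difference of -1.04 (limma adjusted p = 0.421, exact permutation p = 0.0286). MI0009776 was at 3.24, 3.31, 2.48 and 3.28, with a difference of -0.86 (limma adjusted p = 0.496, exact permutation p = 0.0571) that no longer passed without the d 124 library of steer 3, at -0.66. MI0009750 was at 1.91, 0, 0 and 0.61, and MI0009729 was at 2.45, 1.85, 0 and 0. The latter pair had library values at the floor at d 0 and at d 124 alike, and neither passed the study's limits at d 124.

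**Figure D2:**
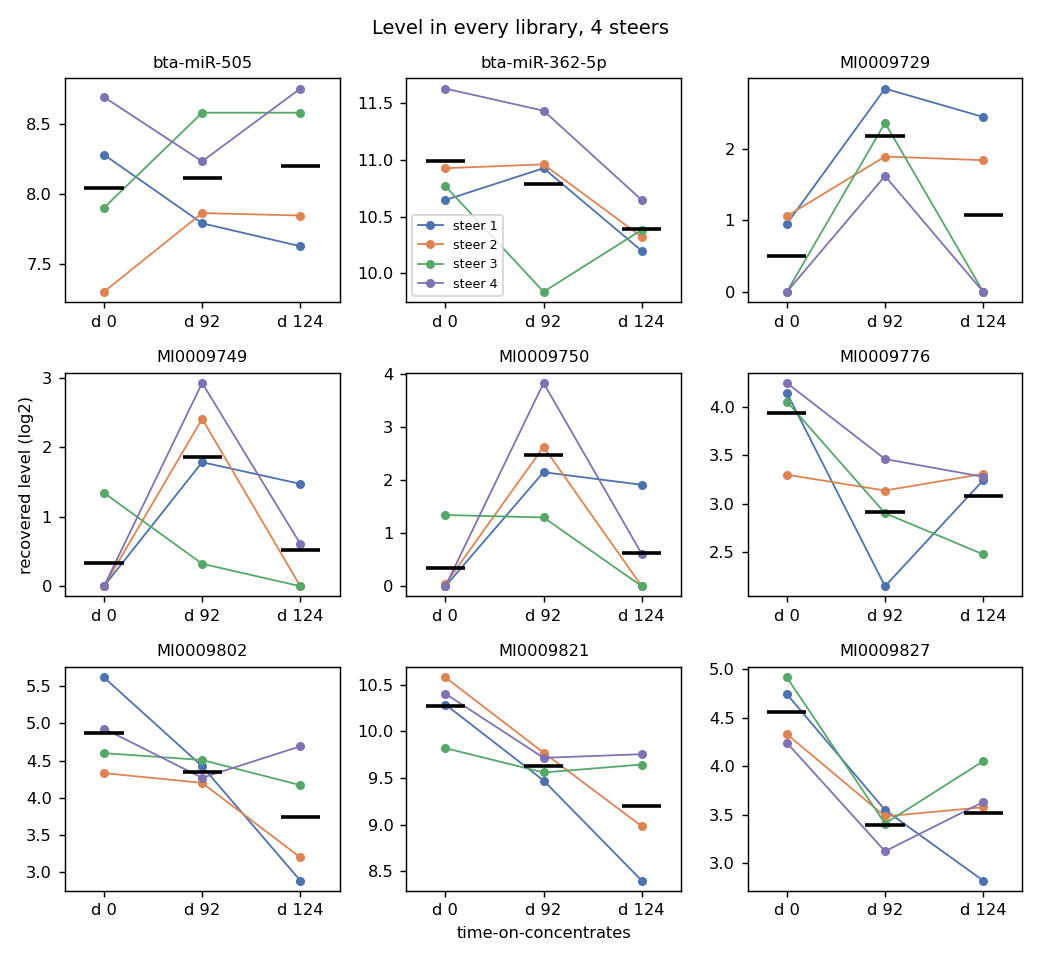
Recovered level (log2, vertical axes, each with its own range) of 9 members in every library at d 0, d 92 and d 124. Points joined by a line are 1 steer, and black bars are means of 4. The d 92 and d 124 levels of MI0009821 and MI0009827 all lie below their d 0 levels, while MI0009729, MI0009749 and MI0009750 have several d 0 libraries at 0.

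In all, 113 of 171 members had a negative difference at d 124 (66.1%), with a median of -0.19, against 214 of all 368 tested miRNAs (58.2%) and a median of -0.07. Without the d 0 library of steer 4 the number was 95 (55.6%) with a median of -0.09, against 48.6% and a median of 0.03 over all tested miRNAs. The times did not overlap in 7 lower members and in 0 higher ones, where 2.72% and 0.0% of all tested miRNAs did not.

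Members of low level varied more within a time. The median SD within a time was 1.00 on the log2 scale for members under a level of 3, 0.52 between 3 and 8, and 0.44 at 8 or more. At d 92 all 3 higher members lay under 3, while of the 6 lower ones 5 lay between 3 and 8 and 1 above. At d 124 the 20 lower members were 1 under 3, 15 between 3 and 8 and 4 above. Below 0 at d 92 were 23 of 41 members under 3 (56.1%), 59 of 73 in the middle class (80.8%) and 34 of 50 above (68.0%), against 54.2%, 76.2% and 56.6% of all tested miRNAs of the same levels. Without the d 0 library of steer 4 the members' shares were 46.3%, 53.4% and 46.0%, against 53.1%, 55.2% and 42.8% of all. At d 124 the numbers below 0 in these classes were 22 of 41, 54 of 73 and 35 of 50, against 58.3%, 70.5% and 50.9% of all. Without that library they were 24, 42 and 25, against 58.3%, 58.1% and 35.8% of all. Of the tested miRNAs with a recovered level, members made up 41 of 96 under 3 and 73 of 105 in the middle class. In the top class they made up 50 of 159. The members' shares are thus in large part set against themselves, most of all in the middle class. No share was taken over the other miRNAs alone. In the main fit, which gave the 20, the spread was not modelled on the level. With the spread modelled on the recovered level, a choice made after the data were seen, the d 124 count was 11. Of these 11, 10 were among the 20.

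**Figure D3:**
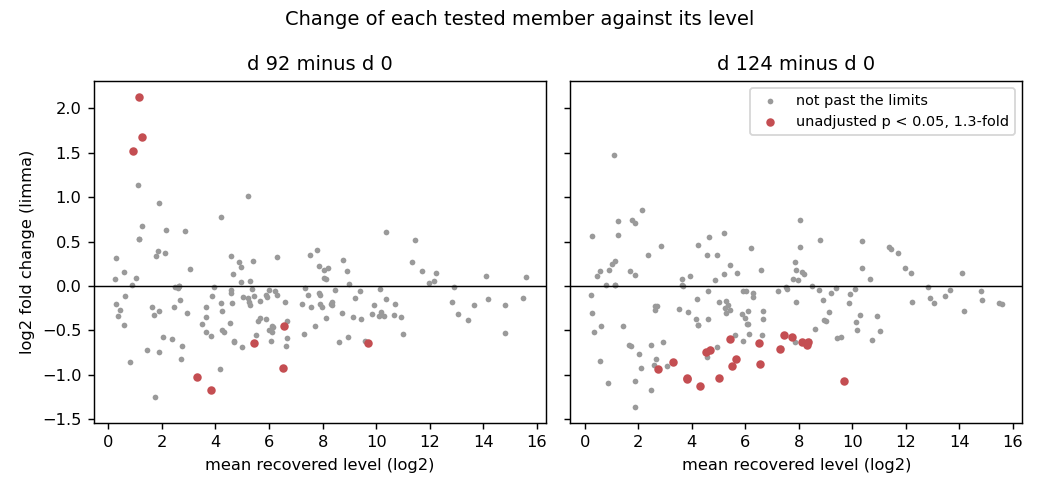
Difference in log2 level (vertical axis) of each tested member with a recovered level at d 92 (left) and d 124 (right) from d 0, against its mean level (log2, horizontal axis). Red points passed an unadjusted p under 0.05 and 1.3-fold. At d 92 the 3 red points above 0 sit under a level of 3, and at d 124 all 20 red points are below 0.

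Between d 92 and d 124, the last month of feeding, the fewest members passed the limits. In limma 0 passed an adjusted p of 0.05, where the smallest was 0.974. By the study's limits 3 members passed (1.75%), all lower, against 1.36% of all tested miRNAs. Their mean levels ran from 0.91 to 2.12. The count was 6 without the d 0 library of steer 4 and 9 without the d 92 library of steer 3. The largest difference was that of MI0009750, whose levels are given above and which was lower in all 4 steers. It came to -1.85 ± 0.57 (SE, n = 4 per time, limma adjusted p = 0.974, exact permutation p = 0.0571).

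Its neighbour MI0009749 stood at 0, 0, 1.34 and 0 at d 0, at 1.79, 2.41, 0.32 and 2.93 at d 92, and at 1.47, 0, 0 and 0.61 at d 124. The d 92 level of steer 3 lay within the range of either other time. At the floor were 3 libraries at d 0 and 2 at d 124, but 0 at d 92. MI0009749 thus met the filter of 4 libraries only through d 92, where it was high. Its tests against d 92 therefore lend no support to a rise there. The difference at d 124 from d 92 was -1.34 ± 0.58 (limma adjusted p = 0.974, exact permutation p = 0.0857). It no longer passed the study's limits with the steer as a block, at an unadjusted limma p of 0.0530. Nor did it pass without the d 0 library of steer 2 or 4, the d 92 library of steer 2 or 4, or the d 124 library of steer 2, 3 or 4, with values from -1.37 to -0.98. Its difference at d 92 from d 0 was 1.52 (limma adjusted p = 0.754, exact permutation p = 0.0571), and this missed the limits without the d 0 library of steer 1, 2 or 4 or the d 92 library of steer 2 or 4, at 1.17 to 1.41. The 2 times did not overlap in 4 members, all lower at d 124, where 1.09% of all tested miRNAs did not.

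Over the 3 times together, 11 of 171 members had an unadjusted p under 0.05 in limma's moderated F test (6.43%, against 4.89% of all tested miRNAs), and 0 passed after adjustment, where the smallest was 0.522. Mean levels were highest at d 0 in 100 members (58.5%) and lowest at d 0 in 36 (21.1%). Over all tested miRNAs these shares were 49.2% and 28.8%. A mean that declined from d 0 through d 92 to d 124 was found in 58 members (33.9%, against 26.1% of all tested), and a mean that climbed through both in 21 (12.3%, against 16.3%). Without the d 0 library of steer 4, 69 members were highest at d 0 (40.4%) and 61 lowest (35.7%), against 37.0% and 39.1% of all tested miRNAs, while 38 declined (22.2%, against 20.9%) and 36 climbed throughout (21.1%, against 23.4%). Of the 6 members lower at d 92 by the study's limits, 5 were among the 20 lower at d 124, and these lists share the d 0 libraries.

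Much of the variation that members shared was carried by single libraries. In a principal component analysis of the 171 members, the first 3 components held 21.5%, 15.8% and 13.2% of the variance. On the first, the d 0 library of steer 4 scored 0.75 and the other 11 scored between -0.39 and 0.27, and all but 35 of the members loaded with it. On the second, the d 0 library of steer 1 stood highest, at 0.67. The d 0 library of steer 4 held the highest value of 66 members (38.6%), and that of steer 1 held 32 (18.7%). At the other end, the d 124 library of steer 1 held the lowest value of 32 members and the d 92 library of steer 2 that of 28.

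The same library stood apart in the other miRNAs. It held the highest value of 64 of 197 tested miRNAs that are no members (32.5%). The median deviation from a feature's own mean in the d 0 library of steer 4 was 0.62 for the members, with 77.8% above their mean, 0.39 for the earlier registered block, with 84.1% above, and 0.15 for the later block, with 59.0% above. Between 150 and 164 of the 180 members with a recovered level were above the floor in a library. The part of this library in the differences from d 0 is given by the counts without it above.

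**Figure D4:**
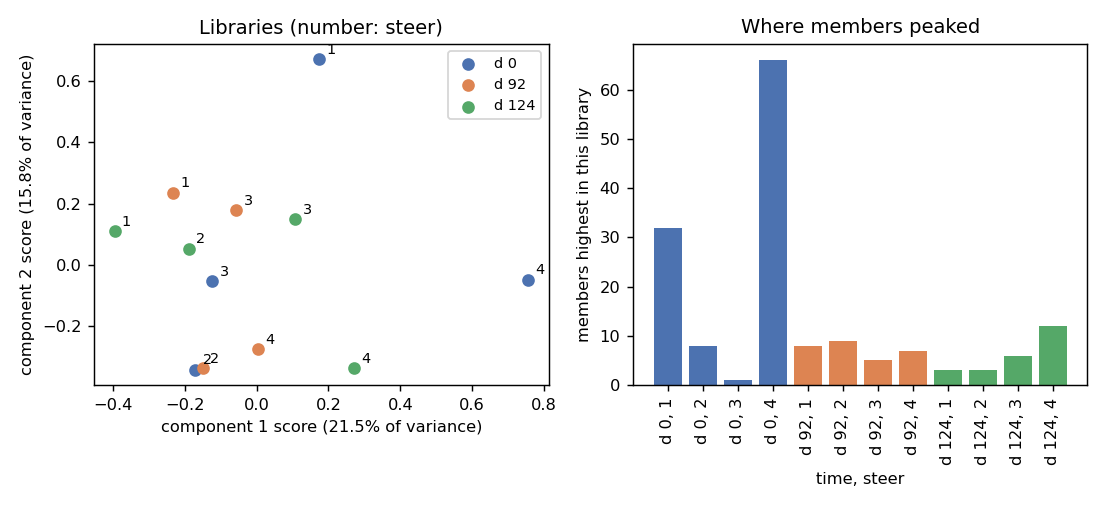
Left, scores of the 12 libraries on the first and second principal components of the 171 tested members, coloured by time and numbered by steer. Right, the number of members (vertical axis) with their highest value in each library. The d 0 library of steer 4 scores 0.75 on the first component and holds 66 maxima, and that of steer 1 holds 32.

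On average, the steer accounted for 33.7% of a member's variance and the time for 18.8%, where variation with no structure gives means of 27.3% and 18.2%. Over all tested miRNAs the means were 33.1% and 18%. In either share the members thus stood near all tested miRNAs, a set that includes the members themselves.

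Some members with neighbouring identifiers were closely alike. Among 128 pairs whose numbers are 1 apart, 7 had a Pearson's r of 0.9 or more over the 12 libraries (5.47%). In 1 of these 7, MI0009732 and MI0009733, both belong to the 6 members that trade places and leave their medians in 2 libraries only. Among pairs 2 to 5 apart there were 0, and among 13905 pairs further apart there were 14 (0.101%). The medians differed little, at 0.22 and 0.16 for the nearest and the furthest pairs. These correlations are across libraries that share steers and normalization, and are given as a description.

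Several of these pairs held the same level in many libraries. MI0009736 and MI0009737 had the same level in 12 of 12 libraries, and both were at the floor in 4 of them. MI0009725 and MI0009726 had the same level in 11 (r = 0.999), and MI0009749 and MI0009750, both described above, in 6 (r = 0.970). In 4 of those 6 libraries both MI0009749 and MI0009750 were at the floor. At d 92 the levels of these 2 members differed in every steer. MI0009731 appears at 2 places on chromosome 17, and its entries had r = 0.992. The sources used here do not give whether reads that fit several miRNA genes were counted at each, so such pairs cannot be taken as separate measurements. A lower likeness with unequal levels was found for MI0010457 and MI0009822 (r = 0.945), with mean levels of 6.57 and 5.65, and both were among the 20 lower members at d 124.

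**Figure D5:**
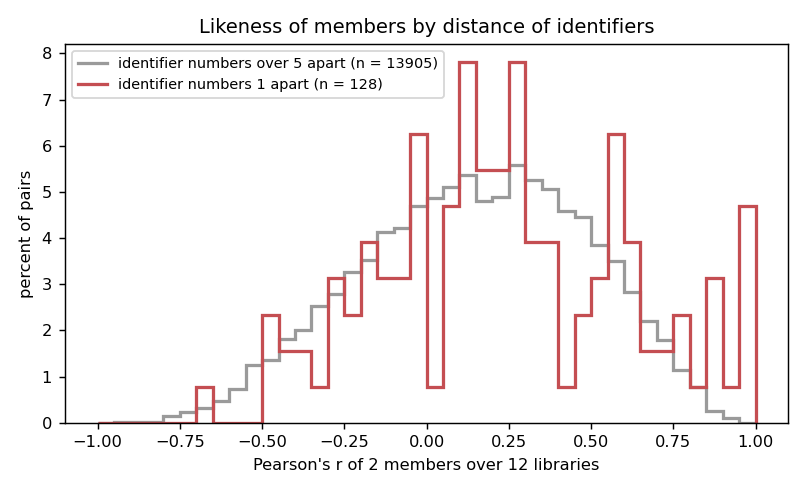
Distribution of Pearson's r over 12 libraries (horizontal axis) for pairs of tested members, as percent of pairs (vertical axis), for identifier numbers 1 apart (red, 128 pairs) and over 5 apart (grey, 13905 pairs). At r of 0.9 or more lie 5.47% of the red pairs and 0.101% of the grey pairs.

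For bta-miR-505, 5 of the 170 other members had an r of 0.8 or more, with 0.902 the highest. For bta-miR-362-5p there was 1, at 0.825.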

How the data were processed

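Small RNA from 12 longissimus biopsies was sequenced by the authors on an Ion Torrent instrument, aligned to bosTau4 and normalized with the Quantile algorithm of StrandNGS. Not given in the sources used here: its version and how reads with several matches were counted. The authors deposited log2 values with each feature's median over the libraries subtracted. The base was taken as 2. Medians were recovered for 1303 of 1314 varying features by matching levels that libraries share (tolerance 3e-06). They serve for levels only, and differences do not depend on them. Recovered values sum to between 1551351 and 1578892 per library. No counting interval is given, as the files hold no depth per library.

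In R 4.3.3, limma 3.58.1 (trend, robust, time only) was fitted to the 368 miRBase features that exceeded the floor in 4 or more libraries. Benjamini-Hochberg adjustment was over all 368. Because the fitted values had medians subtracted, this trend followed each feature's mean deviation and not its level. A feature with no recovered median counted as above the floor where it exceeded its own lowest value. Exact permutation tests were two-sided over 70 regroupings, and their p is printed unadjusted. Recovery and fit were tested on simulated data. The rest was made with pandas 2.3.3, numpy 2.4.6 and matplotlib 3.10.9 (Python 3.11.15). Replicate numbers mark the steer, so samples pair across times. Same-steer deviations of members had r from -0.04 to 0.44 (median 0.14, 12 pairs), and other pairs had a median of -0.04. The study's model had no term for the steer, so the block was an alternative.

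Members and lists were chosen with earlier results of these data known. The rule for naming took members named by the study, those past its limits, the most extreme and most abundant ones and those alike. Because identifiers are not paired with names, at most 2 per direction are printed, and planned lists of muscle, fat, blood and cluster miRNAs were not used. Alternatives were the steer block, each library left out, other filters, median centring, 10 added to linear values, no trend, and only the groups compared. A trend on the recovered level, and time patterns without the d 0 library of steer 4, were chosen after seeing the data.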

Additional observations from a re-analysis of the deposited data

Results flagged for a closer look

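In 27 groups of 4 libraries (9 members with printed values, 3 times), 3 had a library far from the other 3, where the gap to the nearest over the group's range exceeded Dixon's 95% critical value for 4 values. Chance gives about 1 in 20 groups, or 1.35 here, for values without ties. That figure does not cover groups with several libraries at the floor, so the count of 3 is not set against it. MI0009749 at d 0 had a ratio of 1.0, with steer 3 at 1.34 and the others at the floor. With the others tied, the ratio is 1.0 for any value of steer 3 above the floor. MI0009750 at d 0 had a ratio of 0.97, with steer 3 again at 1.34 and the others at 0 or 0.04. It had the same level as MI0009749 in 6 of 12 libraries, so the 2 flags are not separate. MI0009776 at d 124 had a ratio of 0.921, with steer 3 at 2.48 and the others between 3.24 and 3.31.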

How the results depend on the processing

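No adjusted p passed 0.05 under any alternative run. The members past the study's limits at d 92 numbered 9, or 4 after adding 10 to linear values and 7 to 14 on leaving out 1 library. At d 124 they numbered 20, or 11 with a trend on the recovered level and 13 to 23 on leaving out 1 library. Between d 92 and d 124 they numbered 3, or 6 with median centring, 1 after adding 10, 5 with only the compared groups and 2 to 9 on leaving out 1 library. Over 3 times they numbered 11, or 7 with a trend on the recovered level and 10 to 16 on leaving out 1 library. With the steer as a replicate block the counts were 11, 25, 4 and 15, and 19 of the 25 were among the 20 at d 124. The first component held 21.5%, or 27.3% with each member divided by its SD and 19.4% to 24.2% on leaving out 1 library.

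Signs that turned on leaving out 1 library were those of bta-miR-505 (d 92 from -0.17 to 0.29, d 124 from -0.090 to 0.37, d 124 from d 92 between -0.099 and 0.28) and bta-miR-362-5p (d 92, -0.42 to 0.11). At d 124 they were those of MI0009749 (-0.13 to 0.52) and MI0009750 (-0.14 to 0.62). Unless a value shows it, the cause was not tested. Levels near the floor and the lack of depth per library limit what can be read from members under a level of 3.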
